A study of Mus musculus with 14 samples.

Results

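Collagen genes were followed through an H3K27me3 ChIP-seq age series of the mouse cerebellum. They were taken as the protein-coding genes whose symbol is Col, a type number, the letter a and a chain number, which gave 44 of the 21938 protein-coding genes of the annotation. There were 11 fibrillar collagen genes, 8 basement membrane collagen genes (the 6 type IV genes, Col15a1 and Col18a1) and 25 others. The age series held 9 libraries of cerebellum from C57BL/6NCrl mice of both sexes, 3 at each of P7, P14 and P60 (7, 14 and 60 days after birth). Each library pooled 3 mice at P7 and 2 at P14 and came from 1 mouse at P60, so pool size changed with age. A further 2 Kdm6b-WT and 3 Kdm6b-cKO libraries belong to the series and were not used for the collagen genes, because their peak positions did not lie on the genome build of the age lists. Chromatin came from tissue and not from sorted cells, so a mark lost from cells and fewer cells that carry it cannot be told apart.

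H3K27me3, trimethylation of lysine 27 on histone H3, is written by Polycomb repressive complex 2 and lies over promoters of genes that are held silent. In mammalian genomes Polycomb complexes gather at unmethylated stretches rich in the dinucleotide CG, called CpG islands. Collagens are secreted or membrane-bound proteins in which alpha chains wind around each other into a helix. Fibrillar collagens build cables in skin, bone, cartilage and other connective tissue, type IV collagens form the sheet of every basement membrane, and the remaining types link fibrils, form networks or span membranes. In the brain most collagen is made by meningeal fibroblasts and by the cells of blood vessels.

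Promoter sequences differed sharply among the collagen genes, and 7 of them are shown because they span the range from densely marked to never marked. Each runs 5′ to 3′ on the strand of its gene, from 250 bases before to 50 bases after the RefSeq start site on GRCm38.p6, with every CG in capitals. Col13a1 encodes a transmembrane collagen found at neuromuscular junctions, and its promoter (chr10:61979059-61979358, minus strand) held 29 CG. Col8a2, a network-forming collagen of endothelial basement membranes, had 32 CG (chr4:126286544-126286843, plus strand). Col5a1, a chain that sets the diameter of collagen fibrils, had 34 CG (chr2:27886175-27886474, plus strand). Col4a1, a basement membrane chain made in almost every tissue, had 37 CG (chr8:11312777-11313076, minus strand). These 4 promoters carried H3K27me3 in all P7 libraries. Col24a1, a minor fibrillar collagen, was marked too but had only 6 CG (chr3:145292222-145292521, plus strand). Col3a1, a fibrillar collagen of skin and vessel walls (chr1:45311288-45311587, plus strand), and Col28a1, a collagen found around peripheral nerves (chr6:8192568-8192867, minus strand), had 0 CG and no peak in the promoter window of any library.
Col13a1: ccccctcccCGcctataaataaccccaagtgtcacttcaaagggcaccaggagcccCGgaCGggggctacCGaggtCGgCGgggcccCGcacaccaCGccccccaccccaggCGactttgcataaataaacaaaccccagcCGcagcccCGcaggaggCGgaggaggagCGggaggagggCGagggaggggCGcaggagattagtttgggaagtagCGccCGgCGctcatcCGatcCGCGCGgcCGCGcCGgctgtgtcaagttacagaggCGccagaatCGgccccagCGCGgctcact
Col8a2: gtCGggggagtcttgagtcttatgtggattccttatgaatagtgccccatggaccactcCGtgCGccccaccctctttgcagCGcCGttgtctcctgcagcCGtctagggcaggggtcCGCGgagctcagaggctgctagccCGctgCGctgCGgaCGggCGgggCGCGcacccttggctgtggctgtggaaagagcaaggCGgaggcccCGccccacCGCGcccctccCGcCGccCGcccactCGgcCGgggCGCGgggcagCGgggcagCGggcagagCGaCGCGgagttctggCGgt
Col5a1: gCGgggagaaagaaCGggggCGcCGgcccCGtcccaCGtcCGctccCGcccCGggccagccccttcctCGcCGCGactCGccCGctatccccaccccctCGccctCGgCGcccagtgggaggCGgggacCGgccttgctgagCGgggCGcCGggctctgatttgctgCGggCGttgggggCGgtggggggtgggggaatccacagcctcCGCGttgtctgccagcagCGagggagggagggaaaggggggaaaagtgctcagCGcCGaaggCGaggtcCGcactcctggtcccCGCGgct
Col4a1: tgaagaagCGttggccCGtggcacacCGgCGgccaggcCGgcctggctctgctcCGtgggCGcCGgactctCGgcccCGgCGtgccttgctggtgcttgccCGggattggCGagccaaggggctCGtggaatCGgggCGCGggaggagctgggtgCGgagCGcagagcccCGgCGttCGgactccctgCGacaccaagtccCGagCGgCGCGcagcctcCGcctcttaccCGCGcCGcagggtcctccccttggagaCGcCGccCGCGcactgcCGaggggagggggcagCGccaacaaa
Col24a1: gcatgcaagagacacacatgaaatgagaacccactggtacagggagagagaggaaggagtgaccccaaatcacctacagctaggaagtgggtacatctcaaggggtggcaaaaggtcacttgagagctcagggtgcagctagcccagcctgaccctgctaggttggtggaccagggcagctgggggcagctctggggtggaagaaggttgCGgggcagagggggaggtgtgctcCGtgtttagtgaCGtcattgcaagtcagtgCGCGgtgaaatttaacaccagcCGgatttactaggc
Col3a1: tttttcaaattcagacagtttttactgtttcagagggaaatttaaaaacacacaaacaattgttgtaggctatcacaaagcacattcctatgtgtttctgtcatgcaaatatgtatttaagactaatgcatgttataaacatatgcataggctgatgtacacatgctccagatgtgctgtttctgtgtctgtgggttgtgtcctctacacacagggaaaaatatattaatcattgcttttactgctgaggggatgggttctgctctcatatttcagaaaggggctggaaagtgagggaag
Col28a1: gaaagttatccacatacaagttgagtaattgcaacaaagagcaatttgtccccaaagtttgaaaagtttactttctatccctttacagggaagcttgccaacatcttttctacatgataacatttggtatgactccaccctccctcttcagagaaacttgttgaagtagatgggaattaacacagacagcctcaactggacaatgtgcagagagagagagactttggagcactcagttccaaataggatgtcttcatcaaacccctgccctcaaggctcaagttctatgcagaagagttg

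Promoter coverage is the percent of a window of 3 kb on each side of a transcription start site (TSS) that lay under deposited peaks, taken at the most covered annotated start of a gene in each library. A gene was called marked where 1 bp or more was covered. The lists held between 6905 and 15600 peaks and covered between 1.48 and 15.2 Mb, and the number of reads behind them is unknown. The libraries did not weigh equally. Peaks were narrow in P60 replicate 1, P60 replicate 2 and P14 replicate 1, with median widths of 134, 149 and 269 bp, against 410 bp in P60 replicate 3 and between 454 and 751 bp in the other libraries. P60 replicate 3 stood apart from the other P60 libraries at many collagen promoters, as described gene by gene.

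Collagen promoters were richly marked at P7 and sparsely at P60. The number of marked collagen genes was 27, 20 and 22 in the P7 libraries, 17, 21 and 26 in the P14 libraries and 10, 8 and 20 in the P60 libraries. This was 52.3% ± 8.19 of the collagen genes at P7, 48.5% ± 10.2 at P14 and 28.8% ± 14.6 at P60 (SD, n = 3 libraries). Among all protein-coding genes the shares were 19.4% ± 3.98, 15.4% ± 2.87 and 8.98% ± 2.03. Of the 44 genes, 4 were marked in all 9 libraries (Col2a1, Col24a1, Col18a1 and Col8a2), 13 were never marked and 4 were marked in 1 library, which left 27 that could be tested.

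**Figure D1:**
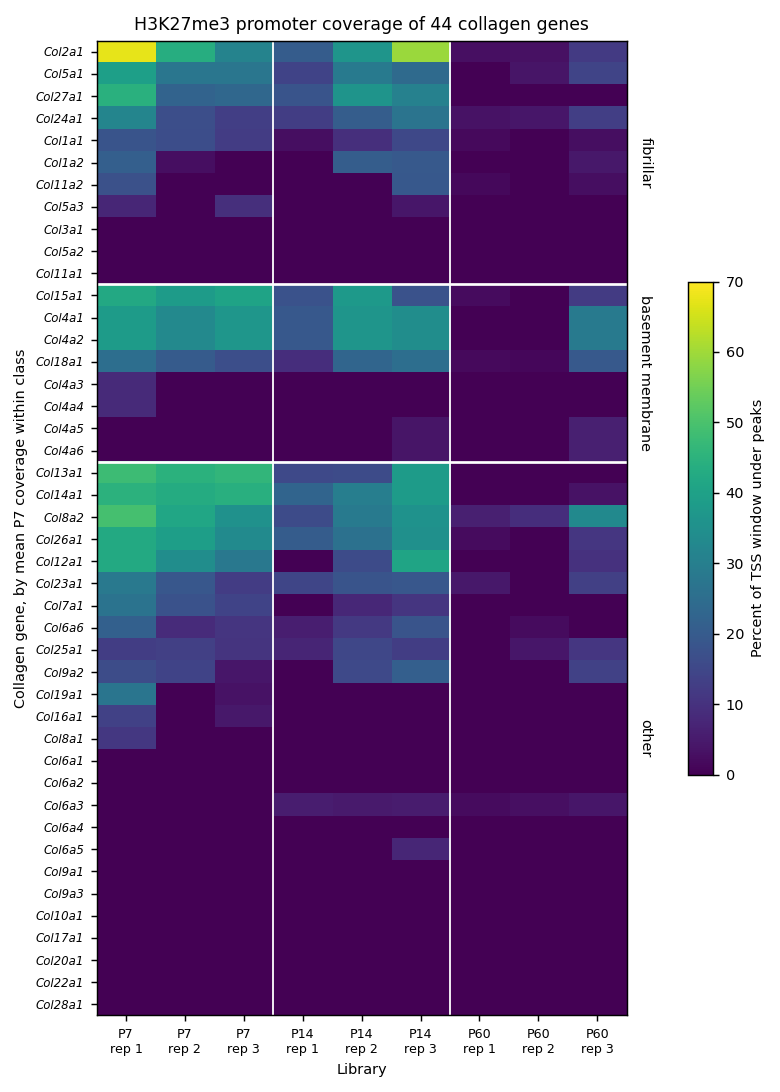
Percent of the TSS window (3 kb each side) under H3K27me3 peaks for the 44 collagen genes (rows, grouped by class and ordered by mean P7 coverage) in the 9 libraries (columns). Coverage reached 67.3% at Col2a1 in P7 replicate 1, and the P60 columns are dark apart from P60 replicate 3.

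Averaged over all 44 genes with zeros included, coverage was 18.0%, 12% and 11.3% in the P7 libraries, 5.48%, 10.8% and 13.7% in the P14 libraries and 0.648%, 0.699% and 5.70% in the P60 libraries. The P7 libraries were all above the P60 libraries, and the P14 libraries overlapped the P7 range. Relative to the mean of all protein-coding genes in the same library, the collagen mean was 3.40 ± 0.220 times as high at P7, 4.14 ± 0.209 at P14 and 2.61 ± 1.44 at P60 (SD, n = 3). The ratio at P60 ran from 1.55 in replicate 1 to 4.26 in replicate 3, a range that includes the P7 values. Coverage of all protein-coding genes fell over the same stages, from 4.11% ± 1.39 at P7 through 2.44% ± 1.06 at P14 to 0.701% ± 0.555 at P60.

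The classes had similar mean levels. In stage order, fibrillar collagen genes had means of 15.0% ± 6.55, 12.7% ± 6.04 and 2.13% ± 2.03 (SD, n = 3 libraries). Basement membrane collagen genes had 17.3% ± 2.41, 13.3% ± 4.50 and 4.45% ± 7.16. The other collagen genes had 12.1% ± 2.91, 7.74% ± 3.51 and 1.77% ± 1.93. In each of the 3 type IV pairs both genes had the same values, so each pair counts double in the basement membrane mean. At P14 and P60 the library ranges of the 3 classes overlapped. At P7 the lowest basement membrane value, 15.6%, lay just above the highest value of the others, 15.4%, and fibrillar values spanned both. The P60 means of all 3 classes rested on replicate 3. Without it they were 0.964% for fibrillar genes, 0.322% for basement membrane genes, whose replicate 3 was at 12.7%, and 0.658% for the others.

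**Figure D2:**
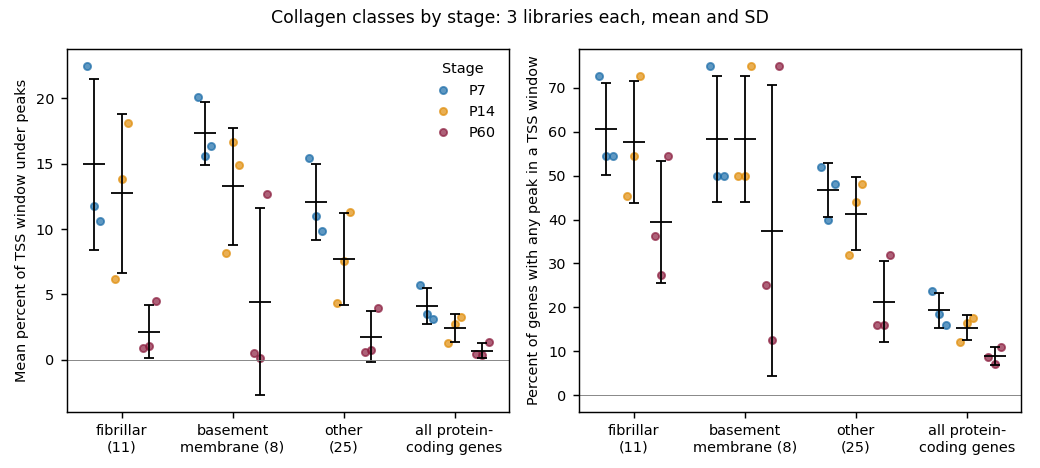
Mean promoter coverage (left) and percent of genes marked (right) for the collagen classes and all protein-coding genes, with a point per library and the mean and SD of 3 libraries per stage in black. The basement membrane class runs from 0.144% to 12.7% coverage at P60, the widest spread of the classes at that stage.

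Differences between stages were tested with limma over the 5120 genes covered in 2 or more of the 9 libraries, with adjusted p under 0.05 as the threshold. From P7 to P60, 14 of the 27 tested collagen genes fell and 0 rose. That is 51.9% of those tested, beside 45.8% of all genes tested that fell and 0.605% that rose. At an unadjusted p under 0.05 limma gave 16 lower and 0 higher, beside 54.7% and 0.957% of all genes tested. The median difference of the tested collagen genes was -14.0 percentage points, beside -12 over all genes tested. The 14 were 4 of 8 tested fibrillar genes, 3 of 6 tested basement membrane genes and 7 of 13 tested others. Col4a1 and Col4a2 share their window, so the 14 genes stand for 13 promoters. Col4a5 and Col4a6, also among the 6 tested basement membrane genes, had equal values in every library too. For the same 14 genes every P60 library lay below every P7 library, a pattern that 52.1% of all genes tested showed. The count was 9 of 27 without P60 replicate 1 and 9 of 27 without P60 replicate 2, beside 32.2% and 31.4% of all genes tested, and 9 of 25 without P7 replicate 1, beside 41.4%. Leaving out the 3 libraries with narrow peaks left only P60 replicate 3 at P60. There most of the 14 calls, and most calls over all genes tested, were lost. The part of peak width in these differences was not tested.

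Among the fibrillar genes, coverage ran from the highest of all collagens to none. Col2a1, the main collagen of cartilage, was covered to 67.3%, 43.6% and 31.2% in the P7 libraries, 20.5%, 36.5% and 59.4% in the P14 libraries and 2.98%, 3.25% and 11.8% in the P60 libraries. Both earlier stages were above P60 without overlap, and the widest Col2a1 peak, 4180 bp in P7 replicate 1, covered the start site. The difference from P7 to P60 was -41.4 percentage points with a standard error (SE) of 10.8 (limma adjusted p = 0.00979).

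Col5a1, which nucleates fibrils together with type I collagen, was at 39.6%, 27.4% and 27.4% at P7, at 14.1%, 28.9% and 24.1% at P14 and at 0%, 4.02% and 14.2% at P60. Col27a1, a cartilage collagen, was at 44.5%, 22.3% and 23.4% at P7, at 18.1%, 36.3% and 30.8% at P14 and at 0% in all P60 libraries. In both genes P7 and P14 overlapped and P60 lay below P7. P60 lay below P14 without overlap for Col27a1, while the highest P60 value of Col5a1 was just above its lowest P14 value. Col5a1 fell by 25.4 percentage points from P7 to P60 (SE 6.07, limma adjusted p = 0.00647). Col27a1 fell by 30.1 points (SE 6.81, limma adjusted p = 0.00494).

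Col1a1, the more abundant chain of type I collagen in bone, tendon and skin, was at 18.1%, 16.6% and 12.5% at P7, at 2.62%, 9.52% and 15.1% at P14 and at 1.90%, 0% and 2.73% at P60. It fell by 14.2 points from P7 to P60 (SE 4.24, limma adjusted p = 0.0180), a call that was lost without P60 replicate 1 or without P60 replicate 2. The Col1a1 peak did not reach the gene start at P7: in each of the 3 libraries it began more than 1 kb downstream, between 1354 and 1653 bp past the TSS.

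Col24a1 was at 31.8%, 16.7% and 12.9% at P7, at 12.8%, 20.7% and 26.8% at P14 and at 3.33%, 4.15% and 13.1% at P60. The P60 range overlapped both earlier stages, and the difference of -13.6 points (SE 6.05) from P7 to P60 did not pass (limma adjusted p = 0.0828). Col11a2, a chain of cartilage type XI collagen, was at 17.4% in P7 replicate 1 and 0% in the other P7 libraries, at 0%, 0% and 19.2% at P14 and at 1.58%, 0% and 2.73% at P60, with no pattern by stage (limma adjusted p = 0.555). The start of Rxrb, a nuclear receptor gene, lies inside a Col11a2 window, 2974 bp from the Col11a2 start. Col1a2, the second chain of type I collagen, was marked in 2 P7, 2 P14 and 1 P60 library, Col5a3 in 3 libraries in all, and neither passed. Col3a1, Col5a2 and Col11a1 were at 0% in all 9 libraries.

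The type IV genes lie in head-to-head pairs, and the 3 pairs behaved differently from each other. Col4a1 and Col4a2, the chains of the common basement membrane network, start 21 bp apart on opposite strands of chromosome 8 and therefore had the same values. They were at 38.4%, 33.0% and 36.7% at P7, at 19.2%, 36.6% and 34.3% at P14 and at 0%, 0% and 28.8% at P60. P60 replicate 3 kept a peak of 1726 bp over the start, while the other P60 libraries had none. The difference from P7 to P60 was -26.5 points (SE 8.17, limma adjusted p = 0.0210), and the call was lost without P60 replicate 1, without P60 replicate 2 or without P7 replicate 1.

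Col4a3 and Col4a4, chains of the kidney, lung and inner ear network, start 72 bp apart and were covered to 8.25% in P7 replicate 1 and 0% in the other 8 libraries. Col4a5 and Col4a6, the X-linked pair, start 1309 bp apart and were at 3.95% in P14 replicate 3, at 6.23% in P60 replicate 3 and at 0% elsewhere. Neither of these pairs was covered beyond single libraries of a stage.

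Col15a1 and Col18a1 encode basement membrane collagens that carry sugar side chains, and the C-terminal end of Col18a1 gives the fragment endostatin. Col15a1 was at 42.2%, 38.5% and 40.7% at P7, at 17.7%, 37.6% and 17.7% at P14 and at 2.1%, 0% and 12.3% at P60. Each stage lay below the one before without overlap, and the difference from P7 to P60 was -35.7 points (SE 6.46, limma adjusted p = 0.00179). Col18a1 was at 25.3%, 20% and 16.9% at P7, at 9.18%, 22.8% and 25.3% at P14 and at 1.90%, 1.15% and 19.5% at P60. P60 replicate 3 lay within the P7 range, and the difference of -13.2 points (SE 6.27) did not pass (limma adjusted p = 0.101). Without P60 replicate 3 the Col18a1 difference passed (limma adjusted p = 0.0244).

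Among the transmembrane collagens, Col13a1 had no peak left in its promoter window in any P60 library. It was at 47.9%, 44.8% and 46.1% at P7, at 15.4%, 15.9% and 38.3% at P14 and at 0% in all 3 P60 libraries. The stages did not overlap, and the P7 peaks spanned 2875, 2689 and 2766 bp across the start site. Col13a1 fell by 46.3 points from P7 to P60 (SE 6.41, limma adjusted p = 0.000826). Among the collagen genes it had the largest difference, and it kept its call in all alternatives run except when only peaks with −log10 q of 4 or more were counted (limma adjusted p = 0.155).

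Col23a1, another transmembrane collagen, was at 28.4%, 19.0% and 12.3% at P7, at 14.6%, 18.3% and 18.9% at P14 and at 4.55%, 0% and 13.2% at P60. The difference of -14.0 points (SE 5.36) lay at the threshold without passing (limma adjusted p = 0.0508). Col25a1, a neuronal collagen known for binding amyloid and for motor neuron development, was at 12.8%, 13.2% and 10.5% at P7, at 7.27%, 14.8% and 12.6% at P14 and at 0%, 4.17% and 11% at P60 (limma adjusted p = 0.188). Its covered start lay 49390 bp downstream of the 5′ end of the gene in every library that had a peak. Col17a1, a collagen of skin hemidesmosomes, was never marked.

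The FACIT collagens, which sit on the surface of fibrils, had strongly marked and bare members. Col14a1, found on fibrils of tendon and skin, was at 44.9%, 43.1% and 44.1% at P7, at 22.6%, 30.1% and 38.4% at P14 and at 0%, 0% and 3.43% at P60. Each stage lay below the one before without overlap, and the fall from P7 to P60 was 42.9 points, a difference of -42.9 (SE 5.56, limma adjusted p = 0.000687). This call held in all 20 alternatives that gave a value, among them the fit that left only P60 replicate 3 at P60. When only peaks with −log10 q of 4 or more were counted, Col14a1 was covered in too few libraries to be tested.

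Col12a1, a FACIT of tendon, ligament and muscle, was at 42.6%, 34.3% and 28.1% at P7, at 0%, 16.0% and 41.0% at P14 and at 0%, 0% and 10.1% at P60. It fell by 31.7 points from P7 to P60 (SE 8.84, limma adjusted p = 0.0133), while its P14 libraries spanned nearly the whole range, and the call was lost without P7 replicate 1. Col9a2, a chain of cartilage type IX collagen, was marked in 6 libraries with no difference that passed. Its most covered start was an inner one, 13614 bp from the 5′ end, in the P7 libraries and the 5′ end in later libraries with a peak. The window at the 5′ end was also under peaks at P7, with a mean of 7.97% beside 11.5% at the most covered start. Col16a1 and Col19a1 were each marked in 2 P7 libraries and in no later library, without passing, and Col9a1, Col9a3, Col20a1 and Col22a1 were never marked.

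All 3 tested genes among the network, anchoring fibril and unclassified collagens fell. Col8a2 was at 49.3%, 41.5% and 35.5% at P7, at 15.9%, 28.8% and 35.7% at P14 and at 6.10%, 9.25% and 33.2% at P60, so it stayed marked in every library. P60 replicate 3 lay just below the lowest P7 library. Col8a2 fell by 26.0 points (SE 8.35, limma adjusted p = 0.0251), and the call was lost without P60 replicate 1, P60 replicate 2, P7 replicate 1 or P7 replicate 2. A window of 1 kb lost the call too. Col26a1, a small collagen described in testis and ovary, was at 42.5%, 39.3% and 33.6% at P7, at 20.3%, 26.1% and 35.2% at P14 and at 1.98%, 0% and 11.2% at P60 (difference -34.1, SE 5.83, limma adjusted p = 0.00140). Col7a1, the anchoring fibril collagen of skin, ranged from 14.1% to 26.8% at P7 and from 0% to 10.7% at P14 and was at 0% at P60 (difference -19.5, SE 4.52, limma adjusted p = 0.00560). Of the untested genes, Col8a1 was at 11.4% in P7 replicate 1 and 0% elsewhere, and Col10a1, a collagen of growth plate cartilage, and Col28a1 were never marked.

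Type VI genes, which encode the chains of beaded filaments, were unevenly marked. Col6a1, Col6a2 and Col6a4 were never marked, and Col6a5 was covered to 7.40% in P14 replicate 3 alone. Col6a6 ranged from 8.52% to 21.3% at P7, from 5.87% to 18.2% at P14 and from 0% to 1.97% at P60 (difference -12.9, SE 4.70, limma adjusted p = 0.0418). That call was the weakest of the 14 and was lost without P14 replicate 2, P60 replicate 1, P60 replicate 2, P60 replicate 3 or P7 replicate 1. It was also lost with genes covered in 1 or more libraries and with the replicate number as a block.

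Col6a3, Col4a5 and Col4a6 were the tested genes whose P60 mean was above their P7 mean, and none of them passed. Col6a3 was at 0% in all P7 libraries, at 5.72%, 4.93% and 5.37% at P14 and at 2.07%, 2.80% and 4.23% at P60, so both later stages lay above P7 without overlap. The peak, between chr1:90775574 and 90776059, lay in a coding exon within 3 kb of an inner start 70756 bp from the 5′ end and was between 124 and 343 bp wide. The difference of 3.03 points (SE 2.14) from P7 to P60 did not pass (limma adjusted p = 0.258), but passed on the arcsine square root scale (limma adjusted p = 0.0430).

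**Figure D3:**
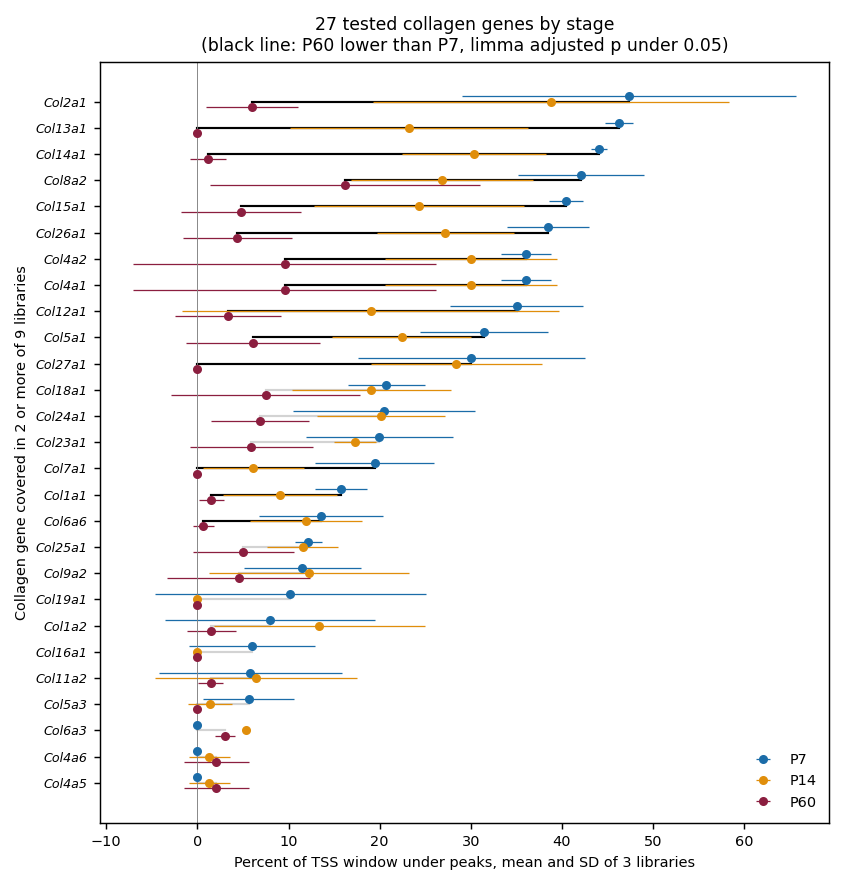
Promoter coverage of the 27 tested collagen genes at P7, P14 and P60, as mean and SD of 3 libraries, ordered by the P7 mean. Black lines join P7 and P60 for the 14 genes that fell by limma, among them Col13a1 from 46.3% to 0%, and Col6a3 is at 0% at P7 and 5.34% at P14.

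Sorted by P7 mean, the collagen genes led with Col2a1 at 47.4% ± 18.3, Col13a1 at 46.3% ± 1.56, Col14a1 at 44% ± 0.884, Col8a2 at 42.1% ± 6.92 and Col15a1 at 40.4% ± 1.86 (SD, n = 3). Each of these overlapped its neighbour in the order over the 3 libraries. Some genes whose chains assemble into the same molecule had different means, while the head-to-head type IV partners, which share a window, had equal ones. At P7, Col1a1 averaged 15.7% and Col1a2 7.97%, with overlapping libraries, Col5a1 31.4% and Col5a2 0%, Col8a2 42.1% and Col8a1 3.80%, and Col9a2 11.5% while Col9a1 and Col9a3 were at 0%. These differences between chains were not tested.

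Few collagen genes passed the threshold within either single step of the series, which does not show that the others were unchanged. From P7 to P14, 1 of 27 collagen genes fell (Col13a1, difference -23.1, SE 6.41, limma adjusted p = 0.0394) and 0 rose, beside 11.7% of all genes tested that fell and 0.352% that rose. At an unadjusted p under 0.05 limma gave 4 lower and 1 higher, the latter being Col6a3, beside 27.8% and 2.81% of all genes tested. Every P14 library lay below every P7 library for 4 of 27 (Col15a1, Col7a1, Col13a1 and Col14a1), beside 27.2% of all genes tested. From P14 to P60, 1 of 27 fell (Col14a1, difference -29.2, SE 5.56, limma adjusted p = 0.0381), beside 2.07% of all genes tested, and 0 rose. At an unadjusted p under 0.05 limma gave 11 lower and 0 higher, beside 24.7% and 0.781% of all genes tested. Every P60 library lay below every P14 library for 9 of 27 genes, beside 25.7% of all genes tested. The median difference of the tested collagen genes was -5.99 points from P7 to P14 (-5.73 over all genes) and -11.4 points from P14 to P60 (-4.86 over all genes). These steps share the P14 libraries, and both single calls changed under many alternatives. The fall from P7 to P14 was lost without P14 replicate 1, P14 replicate 2, any 1 of the P60 libraries or P7 replicate 1. From P14 to P60 the count ran from 0 to 7 with 1 library left out, with 7 of 27 without P14 replicate 1, beside 21.9% of all genes tested.

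The position of the mark relative to the 5′ end is described by class, without a test. Over the 5′ ends of fibrillar genes at P7, 4.99% of the 3 kb before the start lay under peaks and 24.7% of the 3 kb after it. The corresponding values were 13.6% and 21.1% for basement membrane genes and 9.04% and 13.4% for the others. In the basement membrane class the peak shared by Col4a1 and Col4a2, whose starts lie 21 bp apart on opposite strands, counts on both sides of each gene. At P60 the fibrillar values were 1.10% and 2.91%. The most covered start of a gene, which is not always its 5′ end and can differ between libraries, was scored as well. It lay under a peak at 21, 17 and 17 collagen genes in the P7 libraries and at 10, 17 and 20 in the P14 libraries. In the P60 libraries it did so at 0, 1 and 8.

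**Figure D4:**
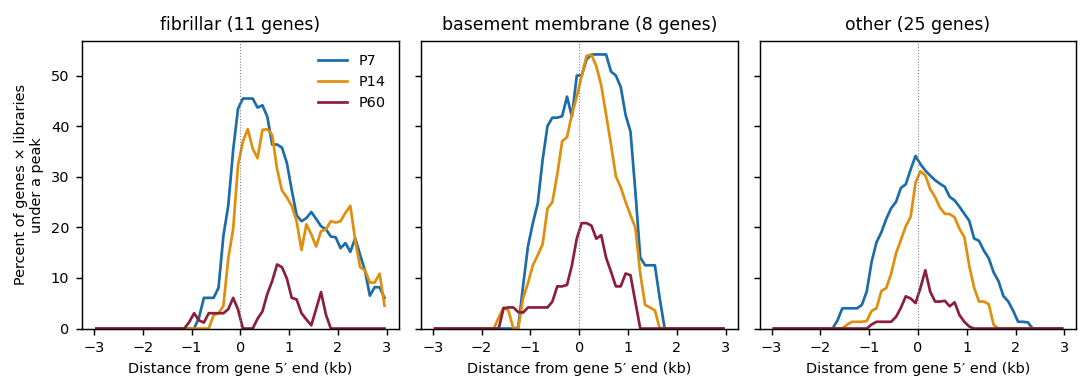
Percent of gene and library combinations under a peak in 100 bp bins by distance (kb) from the gene 5′ end, by collagen class and stage. Fibrillar genes extend mainly downstream of the start, basement membrane genes reach 54.2% at P7 near the start, and around the start the P60 line is lowest in every class.

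Peak width is given for the collagen genes marked in each library, which are not the same genes at each stage (27, 20 and 22 genes at P7, 10, 8 and 20 at P60). The best peak of a marked gene had a median width of 1606, 1422.5 and 1072.5 bp at P7, of 771, 1234 and 1163.5 bp at P14 and of 116.5, 218 and 690 bp at P60, by replicate. In 8 of the 9 libraries that median exceeded the median of all peaks of the list, and the exception was P60 replicate 1, at 116.5 bp beside 134 bp. Fold enrichment and −log10 q are set within a library, so neither was compared between stages.

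CpG density was higher in most collagen genes marked at P7 than in the unmarked ones. The 19 genes marked in all 3 P7 libraries had a median of 23.5 CG per kb in the window around the gene 5′ end (range 14.2 to 37.7), the 8 marked in 1 or 2 had 14.3 (range 13.0 to 27.2) and the 17 marked in none had 11.5 (range 5.33 to 16.3). Marking was taken at the most covered start of a gene, and density at its 5′ end. Col25a1, among the 19, had 0% P7 coverage in its 5′ window, where its density was 16.5 CG per kb. Of the 19, 17 lay above the densest of the 17 unmarked genes, with Col24a1 and Col6a6 as the exceptions. That density, 16.3 CG per kb, is exceeded by 55.6% of all protein-coding genes, of which 21.4% were marked in all 3 P7 libraries. Among all protein-coding genes the medians were 24.8 for those marked in all P7 libraries and 16.2 for those marked in none. Across the 44 genes, CpG density and mean P7 coverage of the same window correlated with Pearson r = 0.831 and Spearman rho = 0.797. This is a description over genes that share the same libraries, and both genes of each type IV pair enter it with equal coverage. High density did not always come with the mark: Col16a1 had 19.5 CG per kb and no P7 peak at its 5′ end, and Col19a1 had 27.2 and was marked in 2 of 3 P7 libraries.

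**Figure D5:**
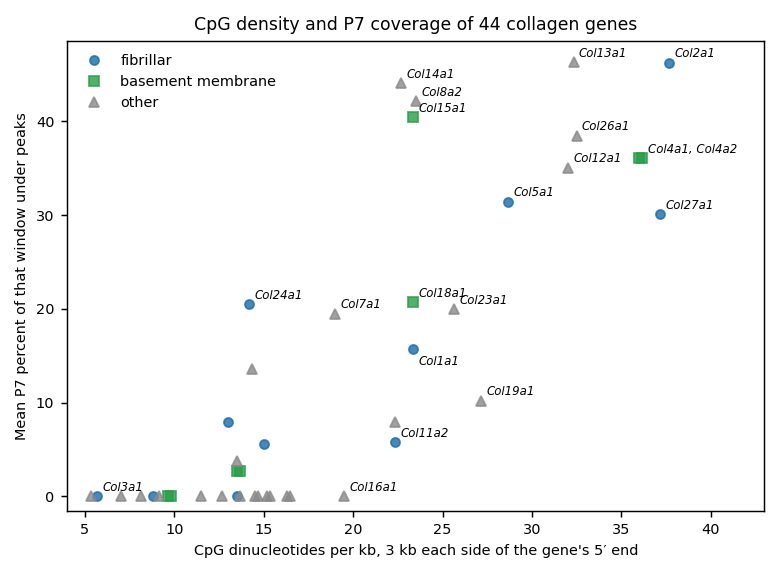
CpG dinucleotides per kb within 3 kb of the gene 5′ end (x axis) against the mean P7 percent of that window under peaks (y axis), for the 44 collagen genes by class. The genes with 0% coverage lie mostly at the left, while Col2a1 at 37.7 CG per kb is among the most covered.

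CG was also counted in the short promoters. RefSeq promoters of 300 bases matched 35 of the 44 genes, and those without a match were Col1a1, Col2a1, Col5a2, Col4a3, Col9a3, Col12a1, Col14a1, Col22a1 and Col26a1. The median number of CG was 20.5 in the 14 matched genes marked in all P7 libraries, 16 in the 7 marked in some and 4 in the 14 marked in none, beside 7 over all 32851 promoters. Col24a1, marked in all P7 libraries, had 6. CG reads the same on both strands and occurs in 94.6% of all promoters. The letters TATAAA, searched on both strands, were found in 1 of 14, 1 of 7 and 3 of 14 promoters, beside 13.6% of all promoters, and both Col13a1 and Col3a1 hold them.

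Genes that work with collagens were counted from lists. From P7 to P60, 10 of 17 tested collagen modifying and processing enzymes fell, such as Adamts2, which removes propeptides, from 33.0% ± 9.84 to 3.87% ± 5.98 (limma adjusted p = 0.00429). The crosslinking enzymes Loxl2 and Lox (limma adjusted p = 0.00555 and 0.0392) and Tll2 (limma adjusted p = 0.00407) fell too. Of 10 tested laminins and basement membrane partners, 6 fell, including Lamb1 from 31.8% ± 14.6 to 1.74% ± 3.02 (limma adjusted p = 0.00465). Of 6 tested collagen receptors, 1 fell, the endocytic receptor Mrc2 (limma adjusted p = 0.0340). No member of these lists rose, and the shares are to be read beside the 45.8% of all genes tested that fell.

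Markers of fibroblasts, vessel cells, neurons and glia were counted in the same way, to be read beside the same 45.8%. Of 9 tested fibroblast and meningeal markers, 7 fell, among them Pdgfra from 46.5% ± 7.64 to 1.39% ± 2.41 (limma adjusted p = 0.00445), and the mean over the 14 listed genes ran from 13.7% to 21.3% in the P7 libraries and from 0.414% to 4.43% in the P60 libraries. Dcn, Dpt, Lum and Ogn were at 0% throughout. Of 9 tested endothelial and mural markers 5 fell, with list means from 10.9% to 20.3% at P7 and from 1.03% to 6.18% at P60, and Acta2, Cdh5, Pecam1, Rgs5, Tek and Vtn were at 0%. Of 6 tested granule neuron markers 4 fell, with list means from 12.1% to 19.3% at P7 and from 0.304% to 0.500% at P60, and Etv1, Gabra6, Zic1 and Zic2 were at 0%. The Bergmann glia and astrocyte list had 1 of 5 lower and the microglia list 0 of 2. List means of the former ran from 3.06% to 8.12% at P7 and from 0% to 2.41% at P60. Those of the microglia list ran from 1.56% to 3.33% at P7 and from 0.0944% to 1.72% at P60. The part of cell composition in the collagen differences was not tested.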

How the data were processed

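H3K27me3 ChIP-seq of mouse cerebellum was deposited as 1 list of broad peaks per library. Per the submitters' processing notes and the study's methods, processing ran through FastQC, Trimmomatic 0.38 for adapters, STAR 2.7.2b for alignment to GRCm38 and MACS2 2.1 for peaks at a false discovery rate threshold of 0.01. The notes also name bedtools 2.25.0 and DESeq2 1.36.0, which the authors used for their own comparisons. No input library is named. The deposited lists hold, for each peak, a score (10 times −log10 q), the −log10 p and q values, and a ratio, the fold enrichment over background in its own library. Peaks with −log10 q near 1.00 are present, which is below the named threshold, and all deposited peaks were used. Read depth is unknown, so no counting interval was computed.

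Windows of 3 kb each side of every annotated TSS of 21938 protein-coding genes (GENCODE M21, mitochondrial genes left out) were intersected with peaks. Genes covered in 2 or more of the 9 age libraries were fitted together with limma 3.58.1 (trend and robust variance, Benjamini-Hochberg adjustment, threshold 0.05), which was tested on simulated data. The p-values measure the spread between libraries. Class means carry no test. CG counts came from the RefSeq genome of GRCm38.p6. Python 3.11.15, numpy 2.4.6, pandas 2.3.3, scipy 1.17.1, matplotlib 3.10.9 and R 4.3.3 were used.

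Collagen classes and the 8 other gene lists were chosen with earlier results of these data known. Library values were printed for the 12 genes with the highest mean P7 coverage, those covered in 2 or more P60 libraries, the type IV pairs and any gene called higher. Other genes passing the test could be named, and at most 4 genes of each other list, those highest at P7.

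The Kdm6b-WT and Kdm6b-cKO lists were left out. Of their 1000 strongest peaks, between 4.9% and 6.5% overlapped those of P14 replicate 2, beside 70.5% to 97.9% for the other age libraries, and between 25 and 74 of their peaks ran past a GRCm38 chromosome end, beside 0 in the age lists. Alternatives covered peak thresholds, peak width and number, window size, start choice, filter, scale, variance model, the replicate block and leaving out each replicate.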

Additional observations from a re-analysis of the deposited data

How the results depend on the processing

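From P7 to P60, 14 collagen genes fell as reported. The count was 5 of 13 tested when weaker peaks than −log10 q of 4 were dropped, where 26% of all genes tested fell. The alternative without the 3 libraries with narrow peaks, chosen after seeing the data, left only P60 replicate 3 at P60. There most of the 14 calls, and most calls over all genes tested, were lost. With 1 replicate left out the count was between 9 and 16 of the 25 or 27 tested, beside 31.4% to 54.8% of all genes tested. Among those it was lowest without P60 replicate 1, P60 replicate 2 or P7 replicate 1. On the arcsine square root scale 1 collagen gene rose by P60 and 1 by P14, both against P7, beside 0 as reported. Of all genes tested, 1.04% and 0.781% rose there, in order. From P7 to P14 the count of lower genes, 1 as reported, was 0 with genes covered in 1 or more libraries (chosen after seeing the data). It was also 0 on the arcsine scale, without the narrow-peak libraries and with a window of 1 kb. Of all genes tested, 6.74%, 10.9%, 0% and 11.5% fell under these, in order. It was 2 of 27 with limma without trend and robust variance and 2 of 23 with lists cut to an equal number of peaks. Of all genes tested, 13.2% and 15.1% fell there. With 1 replicate left out it was between 0 and 2, beside 3.5% to 19.6% of all genes tested. From P14 to P60 the count, also 1, was 0 with genes covered in 1 or more libraries, with −log10 q of 4 or more and with a window of 5 kb. Of all genes tested, 0.179%, 0% and 0% fell under these, in order. On the arcsine scale the count was 7 of 27, and with a window of 1 kb 6 of 24. Of all genes tested, 18.7% and 11.8% fell there. It was 4 of 27 without trend and robust variance and 4 of 21 with −log10 q of 2 or more, beside 6.84% and 8.83%. With the 5′ end only it was 3 of 24, and with peaks of 300 bp or more 3 of 23, beside 4.65% and 6.44%. With 1 replicate left out it was between 0 and 7, beside 0% to 21.9% of all genes tested. The causes were not tested.

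The class differences from P7 to P60 (fibrillar -12.8, basement membrane -12.9, others -10.3 points) were -27.9, -33.5 and -23.5 with a window of 1 kb. The others were at -6.93 with −log10 q of 4 or more and at -6.18 with a window of 5 kb. With type IV genes alone the basement membrane values were 12.9%, 10.4% and 3.89% at P7, P14 and P60, the last from 0%, 0% and 11.7% by replicate. The mean number of marked genes at P60, 12.7, was 4.33 when 10% of the window had to be covered. Direction turned for Col11a2 without P7 replicate 1 (1.44 points, limma adjusted p = 0.872, with values from -7.28 to 1.44 over the replicates left out) and for Col24a1 with lists of equal number (0.183 points, limma adjusted p = 1). The fit with no filter stopped (15218 of 21938 genes had no peak in any library), and the Kdm6b comparison was not run.

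With the replicate number as a block, 13 collagen genes fell from P7 to P60 (Col6a6 was lost), 0 from P7 to P14 and 0 from P14 to P60. Of all genes tested, 39.9%, 4.55% and 0% fell there, in order. Correlations of deviations between same-numbered libraries ran from -0.216 to 0.249, and not every library correlated best with its own number. Between P14 and P60 they were 0.249, -0.0957 and 0.201 for replicates 1, 2 and 3. Whether same-numbered libraries share a batch cannot be told from these values.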

Other observations

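Outside promoter windows, peaks in gene bodies were counted for the collagen genes alone and not for all genes. Between 5 and 14 of the 44 genes had a peak within the gene but outside every TSS window, with 14, 9 and 6 genes in the P7 libraries, 8, 12 and 11 in the P14 libraries and 8, 5 and 7 in the P60 libraries. Col6a6 and Col28a1, whose introns had peaks in all 9 libraries, were singled out after their values were seen. The Col6a6 region on chromosome 9 from 105819204 to 105819678 had peaks between 218 and 475 bp wide with −log10 q between 17.1 and 32.8, and a second intronic region from 105706510 to 105707115 had peaks between 351 and 542 bp wide with −log10 q between 4.33 and 13.2. The Col28a1 region on chromosome 6 from 8165311 to 8165775 had peaks between 235 and 465 bp wide with −log10 q between 13.2 and 28.4. The Col28a1 promoter window itself held no peak in any library, and the Col6a6 promoter window was at 0% in P60 replicates 1 and 3.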
